A study of Rattus norvegicus with 12 samples.

Results

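Iron and heme handling genes of the rat mammary gland were examined in 10 genes: Tf and Tfrc (uptake), Steap3 and Steap4 (reduction), Ftl1 and Fth1 (storage), Slc40a1 and Cp (export), Hmox1 (heme breakdown) and Slc25a39 (mitochondria). These were 10 of the 16511 genes counted, and they were chosen by the diet contrast itself, since Ftl1, Steap4 and Slc25a39 were among the genes with the smallest unadjusted p between the diets and the others were added as their functional neighbours. The difference between the diets is therefore given for all 10 as a description, without a test.

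The samples were labelled as mammary glands of rats at PND21, snap frozen, 1 gland from each litter. The methods of the study describe expression work on microdissected epithelium, in a comparison of the high butter diet with and without bisphenol A, so the tissue and the groups are given here as the labels state them. In the HFB group (6 libraries) the dams had received a high fat butter diet in gestation, and in the CTL group (6 libraries) the dams had received the control diet AIN. The description of the series states that the newborns were kept on AIN after birth. It also gives an end of the dams' exposure that lies after birth. These statements cannot be reconciled, so an exposure that continued after birth is not excluded. The libraries held between 2320267 and 2944680 counted reads, and are named here by diet and library number (HFB 1 to HFB 6, and CTL 7 to CTL 11 and CTL 14).

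Iron circulates bound to transferrin (Tf) and enters cells when the transferrin receptor (Tfrc) is taken up; Steap family reductases then convert ferric to ferrous iron in the endosome. Iron not needed at once is stored in ferritin, a shell of heavy (Fth1) and light (Ftl1) subunits, or leaves through ferroportin (Slc40a1), for which ceruloplasmin (Cp) oxidises it again. Iron regulatory proteins bind the transcripts of ferritin, ferroportin and the transferrin receptor and control their translation or decay, so that transcript and protein levels of ferritin can part. The mammary gland carries iron into milk, and its fat pad, blood and macrophages hold iron handling genes as well.

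The 12 libraries were not alike in cell content. HFB 6 and CTL 14 stood apart, with lymphoid scores (the mean log2 CPM of 7 T and B cell genes) of 6.71 and 6.78, against 4.58 in HFB 1, 3.52 in HFB 2 and 2.39 or less in the other 8 libraries. The adipocyte score of the same 2 libraries was 9.18 and 9.21, against 10.63 or more in the other 10. Among the iron genes, Slc40a1 was lowest in these 2 libraries (31.3 CPM in each), where CPM is the count per 1000000 counts of the scaled library total. Fold changes of the 10 genes are given below with and without them, a choice made after the data had been seen. In bulk tissue, fewer cells of a type and less RNA per cell cannot be told apart.

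All 10 genes passed the filter on low counts, with 59 counts (Cp in HFB 5) as the lowest value of any of them in any library. Across the 9382 genes that passed, edgeR's quasi-likelihood test found 0 genes (0%) at an adjusted p under 0.05, as did DESeq2 and limma-voom. At an unadjusted p under 0.05, edgeR called 220 genes (2.34%), of which 122 (1.3%) were higher and 98 (1.04%) lower with HFB. That share is below the 5% that chance alone gives at this limit. At the same limit limma-voom called 613 genes, and DESeq2, which tested 13396 genes, called 320. The balance of higher and lower genes was not stable, at 105 and 108 with upper-quartile scaling and 269 and 344 in limma-voom. Of the 10 iron genes 3 were within the edgeR count, the same 3 that chose the group, so nothing is read from it. The CPM of the diets did not overlap for 10 genes in all (0.107%), and overlapped for every iron gene of the group. The plot of CPM by library shows how close the ranges lay.

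**Figure D1:**
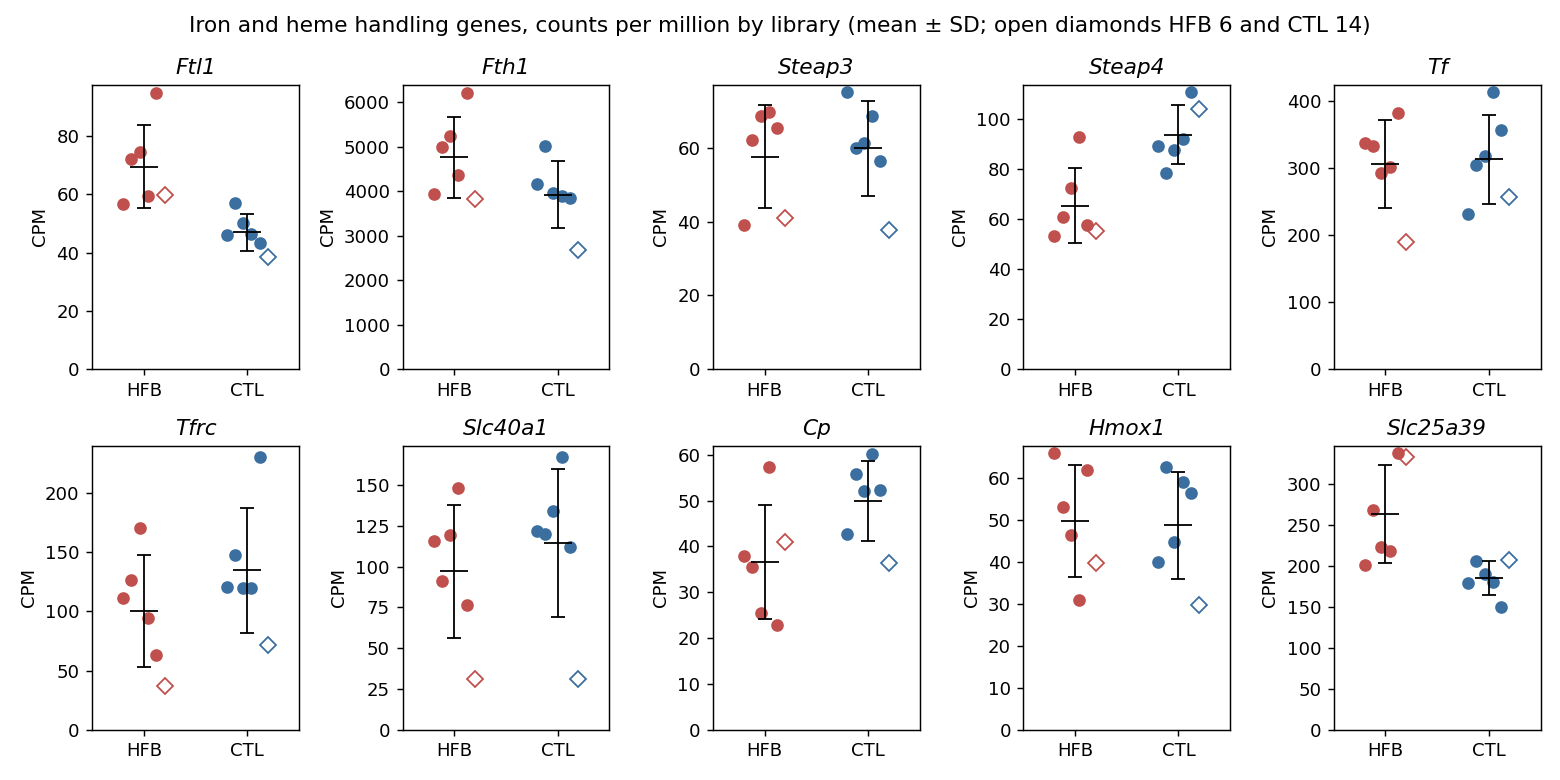
CPM of the 10 iron and heme handling genes in each library of the HFB and CTL diets (points), with the mean and SD of 6 libraries (bars). Open diamonds are HFB 6 and CTL 14, which lie at the bottom of the Slc40a1 panel at 31.3 CPM each, while Ftl1 and Slc25a39 sit higher and Steap4 lower in HFB, with ranges that still overlap.

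Iron uptake was first examined through Tf and Tfrc. Tf (Entrez 24825), made mainly by liver but also by mammary epithelium and other tissues, ranged from 189 to 381 CPM with HFB (median 317) and from 231 to 413 CPM with CTL (median 311). The ranges overlapped widely, with the lowest value in HFB 6 and the highest in CTL 10. The mean was 306 ± 65.3 CPM with HFB and 313 ± 66.1 CPM with CTL (SD, n = 6 each), a log2 fold change of -0.03 (SE 0.18). Its sign was not stable, at 0.03 without HFB 6 and CTL 14 and at 0.07 without HFB 6 alone.

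Tfrc (Entrez 64678), the receptor that brings transferrin into the cell, was among the most variable genes of the group. It ranged from 36.9 to 171 CPM with HFB (median 103) and from 71.5 to 230 CPM with CTL (median 120). HFB 6 was the lowest library and CTL 11 the highest, 6.25 times apart. The mean was 101 ± 47.3 CPM with HFB and 135 ± 52.9 CPM with CTL (SD, n = 6 each), a log2 fold change of -0.42 (SE 0.34). It was -0.38 without HFB 6 and CTL 14 and ran from -0.64 (without HFB 3) to -0.20 (without CTL 11) when 1 library was left out. With the macrophage or the lymphoid score as a covariate it was -0.18 or -0.26.

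Of the Steap reductases, Steap3 (Entrez 170824), the endosomal ferrireductase of erythroid cells, which also occurs elsewhere, ranged from 39.1 to 69.8 CPM with HFB (median 63.7) and from 37.7 to 75.3 CPM with CTL (median 60.7). Its low libraries were CTL 14, HFB 1 and HFB 6, and the other 9 held 56.5 CPM or more. The means were 57.7 ± 13.96 and 59.9 ± 12.8 CPM (SD, n = 6 each), a log2 fold change of -0.06 (SE 0.20) whose sign turned to 0.03 without HFB 1. It was -0.08 without HFB 6 and CTL 14.

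Steap4 (Entrez 499991), a metalloreductase abundant in adipose tissue and known to respond to inflammation and nutrients, was 1 of the 3 genes that chose the group. It ranged from 53.1 to 92.7 CPM with HFB (median 59.2) and from 78.3 to 110 CPM with CTL (median 90.6). In HFB, 5 of the 6 libraries lay below every CTL library, and only HFB 4, at 92.7 CPM, lay within the CTL range. The mean was 65.2 ± 15.1 CPM with HFB and 93.5 ± 11.7 CPM with CTL (SD, n = 6 each), a log2 fold change of -0.52 (SE 0.15). It was -0.65 without HFB 4 and -0.44 without HFB 6 and CTL 14.

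Ferritin storage is carried by Ftl1 and Fth1, and both were higher on average with HFB. Ftl1 (Entrez 29292), the light subunit, also chose the group. It ranged from 56.8 to 94.8 CPM with HFB (median 65.9) and from 38.4 to 56.9 CPM with CTL (median 46.3). The ranges met only at their edges, where CTL 8 (56.9 CPM) was just above HFB 1 (56.8 CPM). The mean was 69.5 ± 14.3 CPM with HFB and 46.9 ± 6.25 CPM with CTL (SD, n = 6 each), a log2 fold change of 0.57 (SE 0.15). It was 0.46 without HFB 5, the highest library, and 0.56 without HFB 6 and CTL 14.

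Fth1 (Entrez 25319), the heavy subunit with ferroxidase activity, was counted far more deeply, with 7593 to 16075 reads per library. It ranged from 3823 to 6218 CPM with HFB (median 4682) and from 2674 to 5021 CPM with CTL (median 3927). The ranges overlapped widely, and the lowest and highest libraries, CTL 14 and HFB 5, were those of Ftl1 too. The mean was 4763 ± 907 CPM with HFB and 3925 ± 753 CPM with CTL (SD, n = 6 each), a log2 fold change of 0.28 (SE 0.19), and 0.25 without HFB 6 and CTL 14. Both ferritin genes are uncertain in level, because GRCr8 names 21 copies of Ftl1 and 10 of Fth1, many of them pseudogenes, and how shared reads were counted is not given in the sources used here. Only Fthl17b of these copies had a row in the counts, with 0 reads.

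Iron export was examined through Slc40a1 and Cp. Slc40a1 (Entrez 170840), which encodes ferroportin, the only known iron exporter of mammalian cells, ranged from 31.3 to 148 CPM with HFB (median 104) and from 31.3 to 167 CPM with CTL (median 121). HFB 6 and CTL 14 held the lowest values in their diets, below 76.2 CPM in HFB 5, the next library. The mean was 97.0 ± 40.6 CPM with HFB and 114 ± 45.1 CPM with CTL (SD, n = 6 each), a log2 fold change of -0.24 (SE 0.37), and -0.25 (SE 0.17) without these 2 libraries. The value was not steady, at -0.05 without HFB 6 alone, -0.43 without CTL 14 alone, -0.03 with the lymphoid score as a covariate and 0.14 with the macrophage score.

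Cp (Entrez 24268), the multicopper ferroxidase that works beside ferroportin, ranged from 22.8 to 57.3 CPM with HFB (median 36.7) and from 36.3 to 60.1 CPM with CTL (median 52.2). Of the HFB libraries only HFB 4 exceeded the CTL median, and the lowest CTL library was CTL 14. The mean was 36.6 ± 12.4 CPM with HFB and 49.9 ± 8.79 CPM with CTL (SD, n = 6 each), a log2 fold change of -0.44 (SE 0.22). It was -0.62 without HFB 4, -0.34 without HFB 5 and -0.55 without HFB 6 and CTL 14.

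Hmox1 (Entrez 24451), the inducible heme oxygenase that frees iron from heme, ranged from 30.8 to 65.8 CPM with HFB (median 49.8) and from 29.6 to 62.4 CPM with CTL (median 50.6). The diets covered nearly the same range, with HFB 1 highest and CTL 14 lowest. The means were 49.6 ± 13.3 and 48.7 ± 12.8 CPM (SD, n = 6 each), a log2 fold change of 0.03 (SE 0.22) that changed sign under upper-quartile scaling and without HFB 6 and CTL 14 (-0.02).

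Slc25a39 (Entrez 360636), a carrier of the inner mitochondrial membrane that imports glutathione and was earlier linked to heme synthesis, was the last of the 3 genes that chose the group. It ranged from 200 to 337 CPM with HFB (median 245) and from 150 to 207 CPM with CTL (median 185). HFB 5 and HFB 6 were highest, at 337 and 333 CPM, and only HFB 1, at 200 CPM, lay within the CTL range. The mean was 263 ± 59.9 CPM with HFB and 185 ± 21.2 CPM with CTL (SD, n = 6 each), a log2 fold change of 0.51 (SE 0.16). It was 0.47 without HFB 6 and CTL 14 and 0.35 with the macrophage score as a covariate.

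In order of their fold changes, Ftl1 and Slc25a39 lay at the upper end, Fth1 below them, Hmox1, Tf and Steap3 near 0, and Slc40a1, Tfrc, Cp and Steap4 at the lower end. Neighbours in this order differed by less than their standard errors, apart from the steps from Slc25a39 to Fth1 and from Fth1 to Hmox1. Ranked by unadjusted p among the 9382 genes, Ftl1 was 4th, Steap4 5th and Slc25a39 12th, the values that chose the group, whereas Cp was 294th, Fth1 1127th and the other 5 genes lower. Within the diets, the SD of log2 CPM was 0.24 for Ftl1, 0.25 for Steap4 and 0.26 for Slc25a39, at percentiles 15.3, 17.4 and 19.8 of all genes tested, but a low spread also favours a small p. It was 0.67 for Tfrc and 0.82 for Slc40a1, at percentiles 78.9 and 86.3. The plot of fold changes by setting shows that Ftl1, Fth1, Steap4, Tfrc, Cp and Slc25a39 kept their sign in all 21 other settings tried, Slc40a1 in 20 of them, Steap3 in 16, and Tf and Hmox1 in 14 each. For Ftl1, Steap4 and Slc25a39 the choice of genes favours a steady sign. For every gene the settings reused the same libraries, so a kept sign is not a repeat of the result in other animals.

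**Figure D2:**
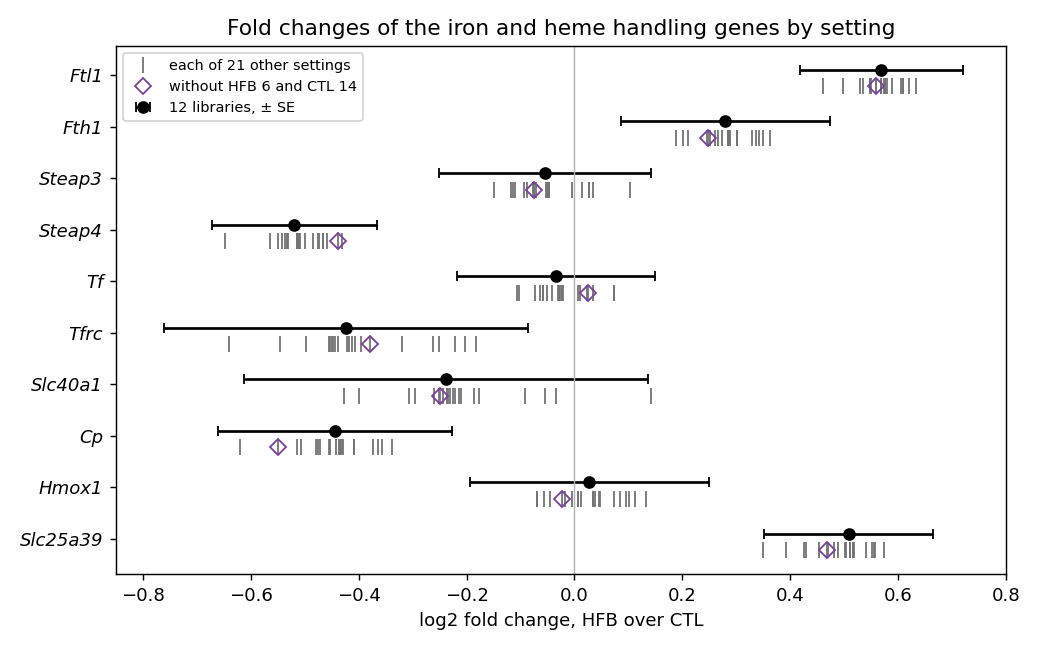
Log2 fold change of each iron gene, HFB over CTL, from edgeR with 12 libraries (black, bars are the SE), and in each of 21 other settings (grey ticks), with the value without HFB 6 and CTL 14 as a violet diamond. Ticks of Steap3, Tf, Slc40a1 and Hmox1 lie on both sides of 0.

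Promoter sequences were read for the genes with an entry, 7 of the 10, as 250 bases before and 50 after the start (RefSeq, GRCr8), and searched on both strands for 4 short motifs. These were TATAAA (the TATA box), CCAAT (bound by nuclear factor Y), ACGTG (the core letters bound by hypoxia inducible factors) and TGACNNNGC (the core of the antioxidant response element). Among 27457 promoters of the same length, 14.3%, 37.7%, 19.7% and 12.2% held them. Steap3, Steap4, Slc40a1 and Slc25a39 had no match in this window. The 3 promoters with matches are printed below 5′ to 3′ on the gene's strand, with the matches in capitals, to show where these lie; Steap4 and Slc25a39 follow without capitals, because the diet values turned on them.
Tfrc (chr11:81690269-81690568, minus strand): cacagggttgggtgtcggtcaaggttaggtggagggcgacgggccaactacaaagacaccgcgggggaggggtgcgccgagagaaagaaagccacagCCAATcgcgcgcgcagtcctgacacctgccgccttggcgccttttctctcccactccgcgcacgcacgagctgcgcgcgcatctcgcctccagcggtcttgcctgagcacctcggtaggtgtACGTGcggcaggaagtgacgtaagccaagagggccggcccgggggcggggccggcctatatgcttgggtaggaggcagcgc
Tf (chr8:112695327-112695626, minus strand): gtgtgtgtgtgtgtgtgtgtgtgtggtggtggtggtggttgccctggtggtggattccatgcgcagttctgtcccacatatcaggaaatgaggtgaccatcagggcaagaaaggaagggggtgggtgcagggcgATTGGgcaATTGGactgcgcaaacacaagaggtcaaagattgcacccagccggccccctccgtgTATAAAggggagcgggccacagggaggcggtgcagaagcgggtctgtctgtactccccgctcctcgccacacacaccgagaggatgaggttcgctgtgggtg
Cp (chr2:104368420-104368719, plus strand): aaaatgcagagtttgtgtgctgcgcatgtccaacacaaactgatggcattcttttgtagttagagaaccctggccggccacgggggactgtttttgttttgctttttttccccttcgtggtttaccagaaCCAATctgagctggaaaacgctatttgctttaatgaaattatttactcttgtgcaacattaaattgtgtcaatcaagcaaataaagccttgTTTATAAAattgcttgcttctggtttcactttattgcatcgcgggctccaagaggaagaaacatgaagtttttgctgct
Steap4 (chr4:27054720-27055019, minus strand): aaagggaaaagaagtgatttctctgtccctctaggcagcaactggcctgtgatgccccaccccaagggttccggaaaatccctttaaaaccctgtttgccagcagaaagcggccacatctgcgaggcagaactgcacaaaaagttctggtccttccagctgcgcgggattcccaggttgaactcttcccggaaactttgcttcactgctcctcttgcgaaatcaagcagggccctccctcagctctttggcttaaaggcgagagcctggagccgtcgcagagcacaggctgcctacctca
Slc25a39 (chr10:87866924-87867223, minus strand): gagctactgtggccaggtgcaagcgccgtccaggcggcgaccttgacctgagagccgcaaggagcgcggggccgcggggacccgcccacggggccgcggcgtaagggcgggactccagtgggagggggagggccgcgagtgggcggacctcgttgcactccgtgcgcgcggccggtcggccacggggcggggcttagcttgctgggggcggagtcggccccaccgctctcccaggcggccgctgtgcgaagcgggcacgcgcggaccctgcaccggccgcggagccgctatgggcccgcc
Counted from the start site, Tfrc had CCAAT at -153 and ACGTG at -31. Tf had TATAAA at -52 and CCAAT on the opposite strand at -116 and -108, printed there as its complement. Cp had CCAAT at -120 and TATAAA at -27, which overlapped a match on the opposite strand at -29. A match is a run of letters and not a shown binding site.

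Other genes of iron and heme metabolism were taken as a list of 64 by role, of which 59 had a row in the counts and 50 passed the filter. At an adjusted p under 0.05 edgeR called 0 of the 50. At an unadjusted p under 0.05 it called 2, both higher with HFB (Alad and Glrx5), as against 220 of 9382 over all genes. Under upper-quartile scaling it called 2 of the 50, of which 1 was lower (213 of 9382 over all genes), and limma-voom called 8, of which 2 were lower (613 of 9382). The median log2 fold change of the 50 was 0.12, with 37 above 0, beside 0.00 and 4694 of 9382 for all genes. With the other scalings, limma-voom or a marker score as a covariate, the number above 0 ran from 35 of 50 (upper-quartile scaling) to 40 of 50 (lymphoid score), and it was 35 of 50 without HFB 6 and CTL 14. With 1 library left out it ran from 29 of 50 (without CTL 14) to 39 of 50. The share of all genes above 0 was counted only in edgeR with TMM scaling and 12 libraries. Without CTL 14 the median log2 fold change of all genes was 0.02. Nothing is therefore read from how the counts of iron genes above 0 moved between settings. The plot of pathway genes by role shows that 9 of 10 heme synthesis genes and 13 of 15 mitochondrial iron genes had positive fold changes, as did 5 of 6 in heme handling, 5 of 10 in uptake, 3 of 6 in regulation, 1 of 2 in storage and 1 of 1 in export. Without CTL 14, uptake had 2 of 10, regulation 0 of 6, storage 0 of 2 and export 0 of 1. Other libraries moved these small roles too. Regulation had 0 of 6 without HFB 3, 1 of 6 without HFB 2 and 4 of 6 without HFB 6, and storage 0 of 2 without HFB 2. The red cell score was 0.72 higher with HFB, and its part in the heme synthesis values was not tested.

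**Figure D3:**
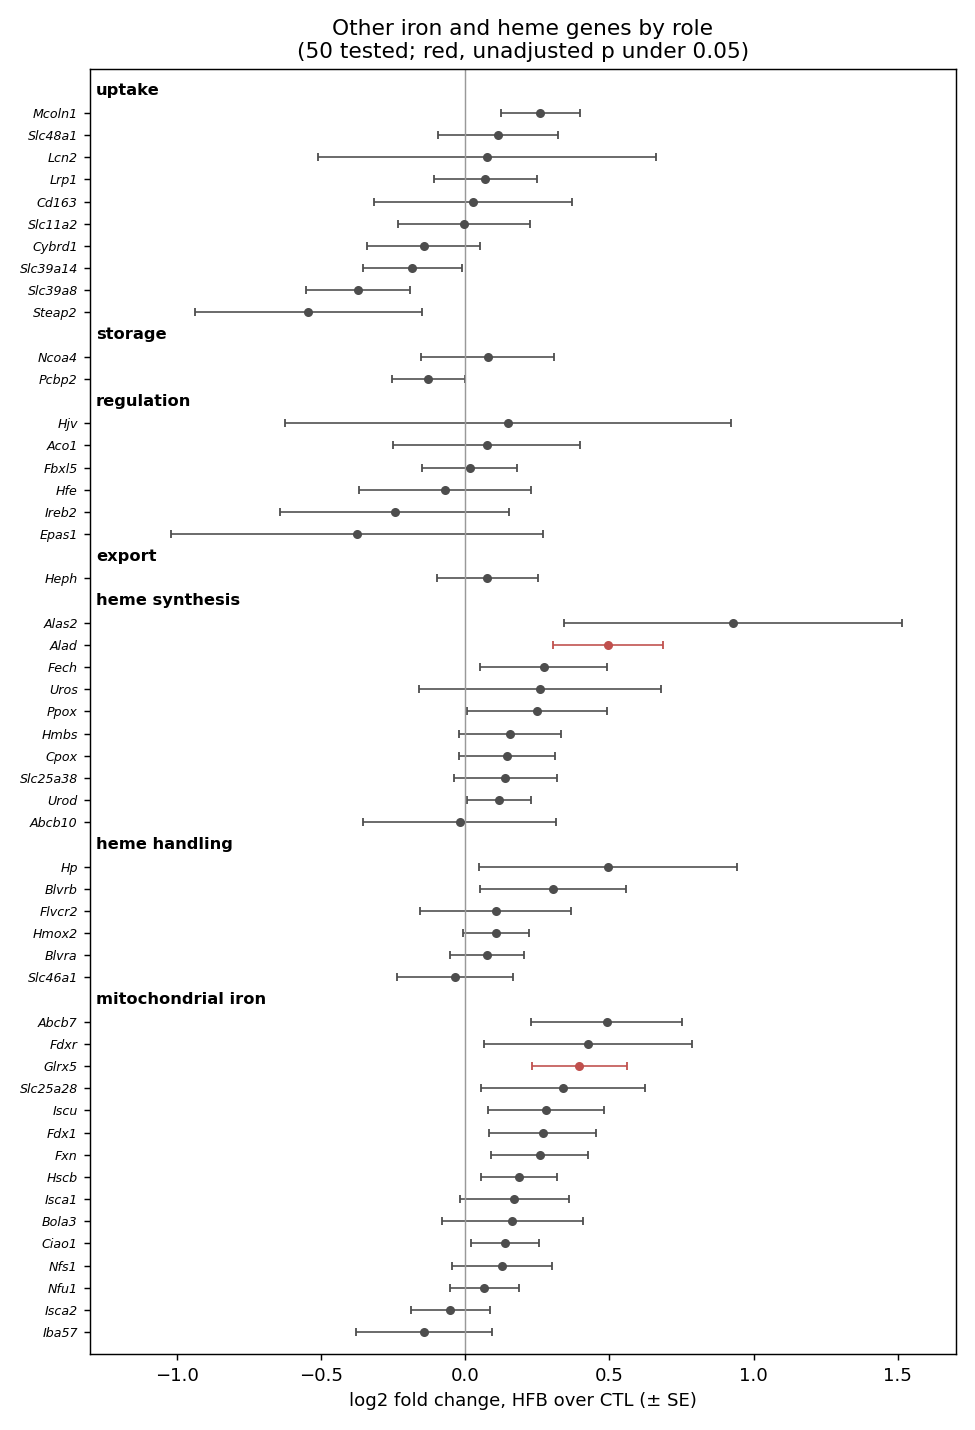
Log2 fold change (HFB over CTL, points; bars are the SE from edgeR) of the 50 tested iron and heme genes outside the chosen group, ordered within their role. Alad at 0.50 and Glrx5 at 0.40, in red, had an unadjusted p under 0.05, and no gene had an adjusted p under 0.05.

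In heme synthesis, Alad, which joins aminolevulinic acid molecules into porphobilinogen, ranged from 98.8 to 188 CPM with HFB (median 158) and from 66.6 to 128 CPM with CTL (median 120). The mean was 153 ± 31.0 CPM with HFB and 108 ± 25.4 CPM with CTL, a log2 fold change of 0.50 (SE 0.19; edgeR unadjusted p = 0.0217, adjusted p = 0.999). Of its 6 HFB libraries, 5 lay above every CTL library. Urod, a later enzyme of the same pathway, had a log2 fold change of 0.12 (SE 0.11; adjusted p = 0.999). The erythroid enzyme Alas2 had the largest value of the list, at 0.93 with an SE of 0.59, and is named here after its value was seen. Alas2 was at 242 CPM in HFB 2, against a median of 54.8 CPM in HFB, and its log2 fold change was 0.16 without that library, which also had the highest red cell score (10.80). CTL 9, at 117 CPM and a red cell score of 10.15, was the highest CTL library in both, and without it the log2 fold change was 1.58.

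In mitochondria, Glrx5, a glutaredoxin of iron-sulfur cluster assembly, ranged from 120 to 188 CPM with HFB (median 156) and from 85.2 to 148 CPM with CTL (median 115). The log2 fold change was 0.40 (SE 0.16; edgeR unadjusted p = 0.0319, adjusted p = 0.999), with ranges that overlapped. The scaffold gene Iscu was at 318 ± 70.9 CPM with HFB and 262 ± 63.4 CPM with CTL, a log2 fold change of 0.28 (SE 0.20). The A-type cluster carrier Isca1 was at 270 ± 66.7 and 240 ± 45 CPM, a log2 fold change of 0.17 (SE 0.19). Neither difference exceeded the spread between libraries.

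The 2 most abundant genes of each other role are given next. In uptake, with 5 of 10 tested genes above 0, the heme-hemopexin receptor Lrp1 was at 0.07 (SE 0.18) and the siderophore binding Lcn2 at 0.07 (SE 0.59). Lcn2 spread from 22.2 CPM to 318 CPM within the HFB group alone. In storage, the ferritinophagy receptor Ncoa4 was at 0.08 (SE 0.23) and the iron chaperone Pcbp2 at -0.13 (SE 0.13), and the mitochondrial ferritin Ftmt had 0 counts in every library. In regulation, Aco1 (iron regulatory protein when it lacks its cluster) was at 0.07 (SE 0.32), and Fbxl5, which marks the other iron regulatory protein for decay, at 0.01 (SE 0.17). Without CTL 14, Ncoa4, Aco1 and Fbxl5 were not above 0 (storage 0 of 2, regulation 0 of 6). Nor were Aco1 and Fbxl5 without HFB 3, or Ncoa4 without HFB 2. In export, the ferroxidase Heph was at 0.08 (SE 0.18) and at -0.02 without CTL 14, and Hephl1 had at most 1 count in any library. In heme handling, the biliverdin reductases Blvra and Blvrb were at 0.08 (SE 0.13) and 0.30 (SE 0.25). The systemic regulator Hamp had at most 1 count in any library, against a floor of 3 counts for counting error only. With library totals left unscaled, unlike the CPM elsewhere, this floor was 1.02 to 1.29 CPM.

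Markers of 8 cell types were then compared between diets with a two-sided exact permutation test, which can give no p below 0.0022. No list differed past the threshold, and the smallest adjusted p was 0.866, shared by 7 of the 8 lists. For red cell genes (8 found, most abundant Hbb at 3293 to 31194 CPM) the score was 9.19 ± 0.95 with HFB and 8.47 ± 0.84 with CTL (exact p = 0.212), with 5 of 6 HFB libraries above the CTL median. Their summed CPM ran from 12051 to 108156 with HFB and from 10944 to 67132 with CTL. Macrophage genes (11 found, most abundant Lyz2 at 175 to 909 CPM) scored 6.18 ± 0.37 and 5.97 ± 0.16 (exact p = 0.253), with summed CPM of 1114 to 2233 and 1017 to 1732. With 1 library left out, the difference between the diets ran from 0.39 (without HFB 2) to 1.05 for the red cell score, and from 0.0863 (without HFB 6) to 0.29 for the macrophage score, which was 0.21 over 12 libraries. Whether either cell type carried the iron genes was not tested.

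Of the other lists, adipocyte genes (7 found, most abundant Fabp4) scored 10.52 ± 0.67 with HFB and 10.56 ± 0.67 with CTL, and epithelial genes (6 found, most abundant Krt8 at 41.7 to 222 CPM, so that epithelium was present in every gland) 5.32 ± 1.10 and 5.83 ± 0.65. Lymphoid genes (7 found, most abundant Cd79b at 0.790 to 263 CPM) scored 2.88 ± 2.50 and 2.20 ± 2.39. Skeletal muscle (8 found, most abundant Acta1 at 76.1 to 2196 CPM) scored 7.70 ± 1.77 and 7.29 ± 1.69, and Schwann cell genes (5 found, most abundant Mbp) 2.88 ± 0.46 and 3.18 ± 0.98. The exact permutation p of these 5 lists ran from 0.366 to 0.758. Liver, the main source of plasma transferrin, was represented by 4 genes found, of which Ttr and Fgb had 0 counts in every library while Alb reached 35.3 to 376 CPM.

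The iron genes were next related to each other and to 6 of the marker scores over the 12 libraries, 105 relations in all, each with Pearson's r and Spearman's rho and a permutation test. Only Ftl1 with Fth1 had an adjusted p of r under 0.05 (r = 0.878, permutation p = 0.00021, adjusted p = 0.0220), and its rho of 0.727 did not (p = 0.0094, adjusted p = 0.238). Without HFB 5 and CTL 14, the libraries farthest from the median of Ftl1, r was 0.744. After each diet was centred on its mean r was 0.921 (permutation test, adjusted p = 0.00105), and within the diets it was 0.966 (HFB) and 0.924 (CTL). Genes outside the group were closer still after centring, such as Cnpy2 to Ftl1 (0.957) and Tspan31 to Fth1 (0.984). Such an r was thus not particular to the ferritin pair, and its share over all gene pairs was not counted. The adjusted p of Ftl1 with Fth1 without centring depended on single libraries. It exceeded 0.05 without HFB 3, HFB 4, HFB 5, CTL 9, CTL 10, CTL 11 or CTL 14 in turn (0.0525 to 0.0867), whereas r stayed at 0.815 or more. Ftl1 was chosen by the diet contrast, so the diet difference enters this p. The same holds for every p without centring given below for Ftl1, Steap4 or Slc25a39, and nothing is read from these p.

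**Figure D4:**
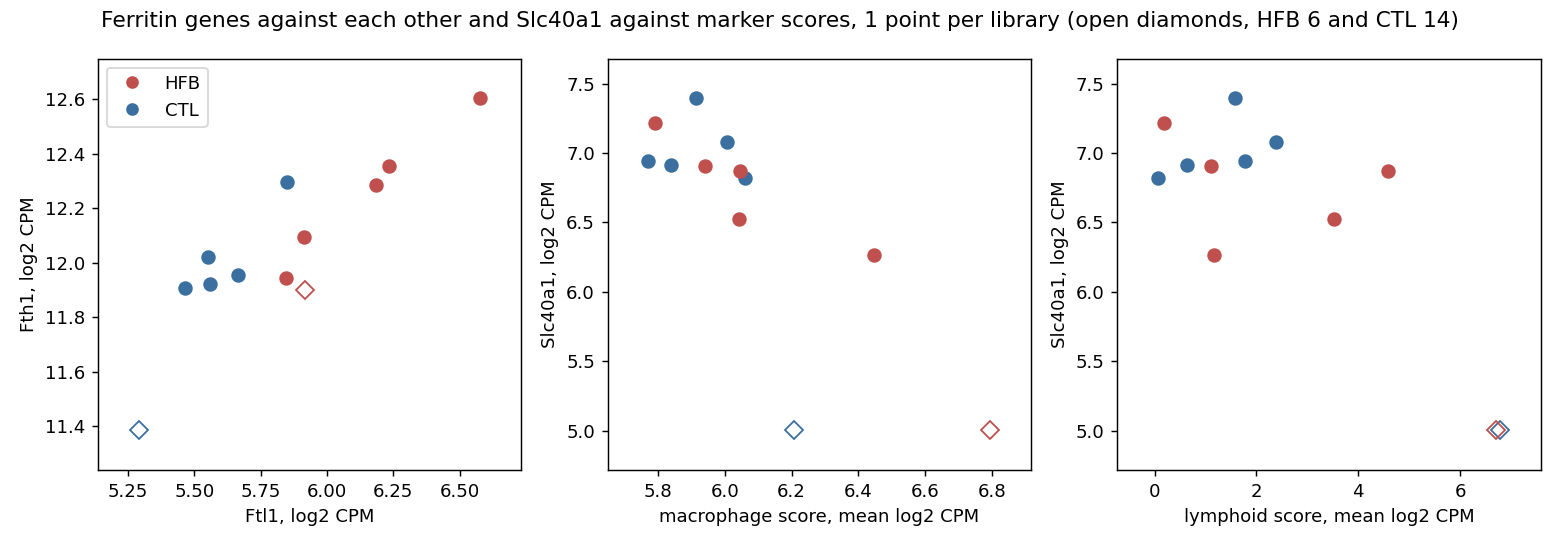
Log2 CPM of Fth1 against Ftl1 (left), and of Slc40a1 against the macrophage (middle) and lymphoid (right) marker scores, 1 point per library (red HFB, blue CTL, open diamonds HFB 6 and CTL 14). The ferritin genes vary together within both diets, and HFB 6 and CTL 14 share the lowest Slc40a1 values.

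Ftl1 was also related to Slc25a39 and Steap4, with r of 0.749 and -0.731 over 12 libraries, but these 3 genes were chosen for the diet contrast, which by itself gives such values. After each diet was centred, r was 0.433 for Ftl1 with Slc25a39, -0.329 for Ftl1 with Steap4 and -0.459 for Steap4 with Slc25a39, and no p is given for them. Without HFB 6 and CTL 14, the centred r of Ftl1 with Slc25a39 was 0.905 (10 libraries) and that of Fth1 with Slc25a39 was 0.840, as against 0.144 over 12 libraries. In HFB 6, Slc25a39 was at 333 CPM while Ftl1 was at 59.7 CPM, near the low end of its diet. Tfrc and Slc25a39 varied in opposite directions, with r = -0.756 (permutation p = 0.00479, 0.0705 after adjustment) and rho = -0.497 (permutation p = 0.104, 0.464 after adjustment), and r was -0.458 when HFB 6 and CTL 11 were left out. After each diet was centred their r was -0.755 (permutation test, adjusted p = 0.0619). Tf and Hmox1 varied together, with r = 0.632 (permutation p = 0.026, 0.144 after adjustment) and rho = 0.727 (permutation p = 0.00944, 0.238 after adjustment), and r was 0.711 when HFB 6 and CTL 7 were left out. Neither passed the adjusted threshold.

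Against the marker scores, Slc40a1 was negatively related to the macrophage score. Its r was -0.801 (permutation p = 0.00804, adjusted p = 0.0844) and its rho -0.860 (p = 0.00071, adjusted p = 0.0745), so neither passed after adjustment. It was -0.718 without HFB 5 and HFB 6, -0.812 after centring the diets and -0.761 without HFB 6 and CTL 14. With 1 library left out it ran from -0.920 (without CTL 14) to -0.640 (without HFB 6, adjusted p = 0.283). Tfrc and Slc25a39 also related to the macrophage score over 12 libraries (r = -0.764 and 0.720; permutation p = 0.00537 and 0.00997; adjusted p = 0.0705 and 0.0952), with rho of -0.455 and 0.441 (permutation p = 0.141 and 0.152; adjusted p = 0.528 and 0.552). Without HFB 5 and HFB 6 their r was -0.147 and 0.041, so these 2 relations rested on those libraries.

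For the lymphoid and adipocyte scores HFB 6 and CTL 14 formed a cluster of their own, and r is given over the other 10 libraries. The largest was -0.681 for Steap4 with the lymphoid score (permutation p = 0.0295, 0.199 after adjustment), with rho of -0.624 (permutation p = 0.0609, 0.492 after adjustment) and -0.694 once the diets were centred. Slc40a1 had r of -0.180 with the lymphoid and 0.332 with the adipocyte score there, Tfrc -0.205 and 0.252, and Steap3 -0.596 and 0.288. None of the 20 relations with these scores had an adjusted p under 0.05 over the 10 libraries. Slc40a1 and Tfrc were at their lowest of each diet in HFB 6 and CTL 14, the glands with high lymphoid and low adipocyte scores. Their diet values without these libraries and with a score as a covariate are given above, and how much of them came from cell content cannot be told from these. The red cell score was not related to any iron gene past the threshold, the largest r being 0.498 for Ftl1 (permutation p = 0.10, 0.319 after adjustment), whose rho was 0.608 (permutation p = 0.040, 0.382 after adjustment). That r was 0.692 when HFB 2 and CTL 9 were left out and 0.322 once the diets were centred.

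**Figure D5:**
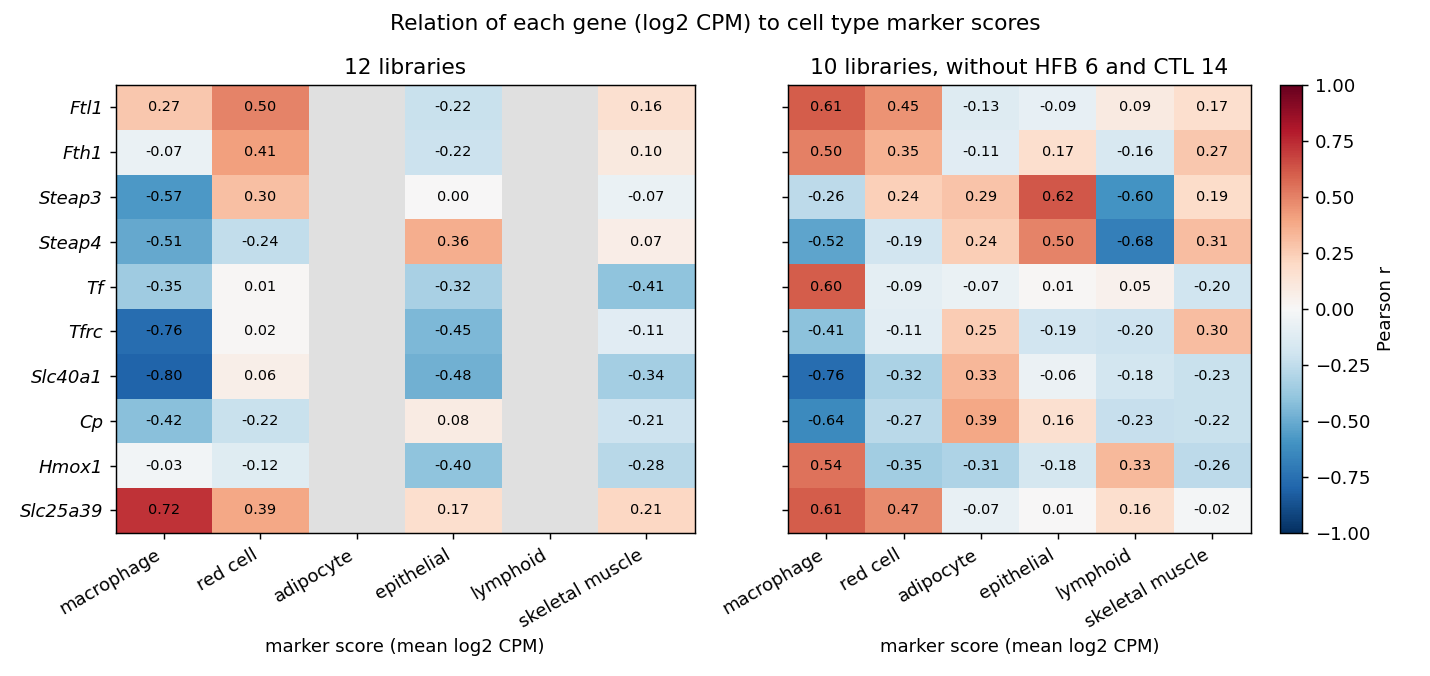
Pearson's r between the log2 CPM of each iron gene (rows) and 6 marker scores (columns), over 12 libraries (left) and over 10 without HFB 6 and CTL 14 (right). Grey columns are left blank over 12 libraries because HFB 6 and CTL 14 form a cluster of their own there. The macrophage value of Slc40a1 is -0.80 on the left and -0.76 on the right, while that of Fth1 changes from -0.07 to 0.50.

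The genes most like each iron gene were found by r of log2 CPM over the 12 libraries after centring each diet, among the 9382 genes, as a description without a test. Ftl1 was closest to Cnpy2 (0.957), Cox8a (0.945) and Prdx2 (0.941), and Fth1 to Tspan31 (0.984), Sar1a (0.957) and Tax1bp3 (0.956). Slc25a39 was closest to Atp6v1f (0.974), Tmem248 (0.951) and Dpagt1 (0.948). Tfrc was closest to Tmed7 (0.955), Abce1 (0.954) and Ltv1 (0.951), and Slc40a1 to Oxct1 (0.982), Dag1 (0.982) and Zfyve16 (0.978). Steap3 was closest to Ephx2 (0.926), Zscan21 (0.921) and Cgnl1 (0.898), and Tf to Dnajc12 (0.887), Trmt12 (0.875) and Ces1a (0.874). Steap4 was closest to Rnmt (0.840), Sema3g (0.831) and Sec14l1 (0.813), Cp to Atf7 (0.840), Scyl2 (0.831) and Usp32 (0.817), and Hmox1 to Gpr89b (0.90), Mrps25 (0.847) and Pfkfb1 (0.827). These values include HFB 6 and CTL 14, and the genes were ranked with them. Without these 2 libraries the r of the same pairs ran from 0.714 (Hmox1 with Pfkfb1) to 0.975 (Fth1 with Tspan31), and for Slc40a1 it fell to 0.875 (Oxct1), 0.830 (Dag1) and 0.916 (Zfyve16). No iron gene of the group was among the closest 3 of another.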

How the data were processed

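Total RNA of 12 mammary glands had been sequenced and the authors deposited whole-number counts per gene (Entrez identifiers, 16511 genes), without normalization and with 1 column per gland. The submitters' processing notes name CASAVA 1.8, bcl2fastq, TopHat, DESeq and the build rn4. The counting program, the annotation and the use of strand are not given in the sources used here. Symbols came from the RefSeq gene table of GRCr8, which matched 16351 identifiers. The members and lists were chosen with earlier results of these data known.

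CPM and log2 CPM (prior count 2) were computed with TMM scaling. The diets were compared in edgeR 4.0.16 (R 4.3.3; filterByExpr, quasi-likelihood test, Benjamini-Hochberg adjustment, threshold 0.05), with DESeq2 1.42.0 and limma 3.58.1 (voom with sample quality weights) as alternatives. Other alternatives were DESeq2's size factors, upper-quartile scaling, a minimum of 10 counts in each library, omission of the filter, the macrophage or lymphoid score as a covariate, prior count 0.5, diets centred, and leaving out each library. Leaving out HFB 6 and CTL 14 together was added after seeing the data. Standard errors in edgeR were taken from the fold change and its p.

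Marker scores were means of log2 CPM, compared over all 924 assignments of the libraries (two-sided, adjusted over 8 lists). The lists were macrophage, red cell, adipocyte, epithelial, lymphoid, skeletal muscle, liver and Schwann cell genes, 56 of 62 genes being found. Relations used 100000 resamples (Python 3.11.15, numpy 2.4.6). The tests were checked on simulated data. In counts simulated for the diet comparison (9233 genes tested), edgeR called 40% of 100 genes changed 2-fold and 91% of 100 changed 4-fold, and 0 unchanged genes, whereas 13 of the 164 genes called by DESeq2 (9382 tested) were unchanged.

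Named are the 10 genes, the pathway genes with an unadjusted p under 0.05, the 2 most abundant of each role (by CPM, since no transcript length was used), the 3 genes most like each of the 10, and the most abundant gene of each marker list with markers at 0. Alas2 was named after its value was seen, and Ftmt and Hamp for their lack of counts. Relations over 12 libraries are named at an unadjusted p under 0.01, a limit set after seeing the data. Others are named as pairs of the 3 genes that chose the group, with Fth1 beside them, as the largest with the red cell score, or for the lymphoid and adipocyte scores over 10 libraries. Levels of different genes are compared only in choosing the most abundant genes and in the read counts of Fth1 beside Ftl1.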

Additional observations from a re-analysis of the deposited data

Results flagged for a closer look

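In 10 of 66 groups of 6 libraries examined (the CPM of the 10 iron genes and of 15 pathway genes named by p or abundance, and the marker scores), the highest or lowest library lay far from the nearest other. For independent groups, chance alone gives about 1 in 20, or 3.3 of 66. These groups share the same 12 libraries, so nothing is read from 10 beside 3.3. None of the 20 groups of the iron genes themselves was among the 10.

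CTL 14 accounted for 6. Its adipocyte score was 9.21 (next lowest 10.72) and its lymphoid score 6.78 (next highest 2.39). Its CPM was the lowest of the CTL group for Aco1 (175, next 347), Heph (19.7, next 32.9), Isca1 (152, next 239) and Lrp1 (266, next 466). In HFB 6 the adipocyte score was 9.18 (next lowest 10.63). The part of cell content in these values was not tested.

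In CTL 9 the red cell score was 10.15 (next highest 8.30). Hephl1 had 1 count in HFB 2 (0.428 CPM) and 1 in CTL 11 (0.421 CPM) and 0 in the other libraries, which is below the floor of 3 counts. Alas2 was not among the groups examined, since it was named after its values were seen. Its highest CPM was 242 in HFB 2 (next 58.5) and 117 in CTL 9 (next 32.4).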

How the results depend on the processing

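No paired analysis was made, because the labels name no pairs of HFB and CTL libraries. Library numbers run from 1 to 6 in HFB and from 7 to 14 in CTL. An effect that followed this order could not be told apart from diet. The count of genes at an adjusted p under 0.05 was 0 in edgeR, in DESeq2, in limma-voom and in all other settings. The 220 genes at an unadjusted p under 0.05 became 613 in limma-voom, 430 with the macrophage score and 362 with the lymphoid score as a covariate, 431 without HFB 6 and CTL 14, and 135 to 587 when 1 library was left out (135 without HFB 5, 137 without CTL 11, 141 without CTL 7 or CTL 10, 378 without HFB 1, 389 without HFB 4, 587 without CTL 14). Of the 220, 122 were higher and 98 lower with HFB, and more were lower with upper-quartile scaling (105 and 108), in limma-voom (269 and 344), with the macrophage score (169 and 261), without HFB 5 (56 and 79) and without HFB 6 (112 and 157), whereas 417 were higher and 170 lower without CTL 14. The 2 iron pathway genes became 8, 5, 4 and 4 in the same 4 settings, and 1 to 4 when 1 library was left out (4 without HFB 6, 1 without HFB 2, HFB 3, CTL 7, CTL 10, CTL 11 or CTL 14). Both were higher with HFB, but 2 of 8 were lower in limma-voom, and 1 was lower with upper-quartile scaling, with a minimum of 10 counts per library, with the macrophage score, without HFB 6, and without HFB 6 and CTL 14. Relations with an adjusted p under 0.05 numbered 1, but 3 without HFB 6 and CTL 14 and 0 to 2 when 1 library was left out (2 without HFB 1, HFB 2 or HFB 6, and 0 without HFB 3, HFB 4, HFB 5, CTL 9, CTL 10, CTL 11 or CTL 14). The added ones were Ftl1, Steap4 or Fth1 with Slc25a39, not centred by diet, and Slc40a1 with the adipocyte score. Nothing is read from them, because Ftl1, Steap4 and Slc25a39 were chosen by the diet contrast and HFB 6 and CTL 14 form a cluster of their own in the adipocyte score.

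Score differences between diets changed sign for liver with prior count 0.5 (0.0389). With 1 library left out they ran from -0.157 to 0.0702 for liver, -0.31 to 0.23 for adipocyte, -0.0866 to 1.59 for lymphoid, -0.14 to 0.86 for skeletal muscle, -0.74 to -0.22 for epithelial (-0.51 over 12 libraries), 0.0863 to 0.29 for macrophage, 0.39 to 1.05 for red cell and -0.47 to 0.0581 for Schwann cell genes, none past the threshold. The causes were not tested. Among single genes and named relations, 391 values kept their direction and side of the threshold or moved by less than the spread, 4 values of relations came past the threshold (Steap4 with Slc25a39 without HFB 1, Ftl1 with Slc25a39 without HFB 6 and without HFB 6 and CTL 14, and Slc40a1 with the adipocyte score without HFB 2) and 7, all of Ftl1 with Fth1, lost it. At these depths a gene needs more than 3 counts in a library to be told from 0.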
